A study of Homo sapiens with 6 samples.

Results

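The cation-chloride cotransporters and the kinases that regulate them were followed in A549 cells, a human lung adenocarcinoma line, by 8 genes. These were the cotransporters SLC12A2, SLC12A4, SLC12A7, SLC12A8 and SLC12A9 and the kinases WNK1, STK39 and OXSR1, found by symbol among the 26485 genes counted. The group was picked on the difference between the conditions, since SLC12A4 was known to be far lower with sgRNA #2. The differences of the 8 genes are therefore given as descriptions, without p-values. Every library came from cells that stably carried lentiviral rat Nkx2-1 (PGK promoter, IRES-EGFP) and dCas9-KRAB, a nuclease-dead Cas9 joined to a repressor domain. In 1 group the cells were transfected with synthetic sgRNA #2, aimed at the first intron of SFTPB, and in the other with a non-targeted sgRNA (the sgRNA control), with 3 libraries in each group. Cells with dCas9-KRAB were kept by puromycin and those with Nkx2-1 were sorted on GFP. The triplicates were described as biologically independent. No library of cells without an sgRNA was used here.

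Cation-chloride cotransporters carry chloride across the plasma membrane together with sodium or potassium and so set cell volume and intracellular chloride. SLC12A2 (NKCC1) brings sodium, potassium and chloride into the cell, whereas the potassium-chloride cotransporters, among them SLC12A4 (KCC1) and SLC12A7 (KCC4), let potassium and chloride out. WNK1 is a kinase sensitive to chloride that activates STK39 (SPAK) and OXSR1 (OSR1), which in turn phosphorylate the transporters, switching NKCC1 on and the potassium-chloride cotransporters off. In airway and alveolar epithelium, chloride entry through NKCC1 supplies fluid secretion.

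Between 6047554 and 7584611 reads per library were counted on genes. SFTPB, the gene the sgRNA was aimed at, had 2683, 2877 and 3155 counts with the sgRNA control and 40, 42 and 49 with sgRNA #2. Of the epithelial markers, KRT7, KRT8, KRT18 and CDH1 had at least 1104 counts in every library, EPCAM had 44 to 76 and KRT19 had 0 to 4. The summed level of these 6 markers was 3579 to 4542 CPM (counts scaled to a common library size) with the sgRNA control and 3379 to 4156 with sgRNA #2. The leukocyte markers PTPRC and CD3E, the endothelial CDH5 and the fibroblast markers COL1A2 and DCN were at 0 in all 6 libraries. On the same lists, CD68, which is also made outside the blood lineage, had 402 to 480 counts, CD14 had 12 to 22, COL1A1 had 36 to 58 and the other markers had at most 5. The summed level of the haematopoietic markers was 64.6 to 69.7 CPM with the sgRNA control and 68.4 to 70.1 with sgRNA #2, that of the 4 endothelial markers at most 0.848 and 0.600, and that of the 5 fibroblast markers 6.51 to 9.06 and 6.15 to 8.69. All 8 genes passed the filter on low counts, which kept 13356 genes.

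SLC12A4 encodes KCC1, the potassium-chloride cotransporter found in most tissues (ENSG00000124067.17, chr16:67943474-67969601, minus strand of GRCh38). With the sgRNA control it had 168, 249 and 235 counts, and with sgRNA #2 it had 9, 11 and 11. In CPM the libraries stood at 26.7, 35.2 and 30.8 with the sgRNA control and at 1.28, 1.65 and 1.83 with sgRNA #2. Each sgRNA #2 library lay far below the lowest control library, and the groups did not overlap. The means were 30.9 ± 4.25 CPM and 1.59 ± 0.281 CPM (SD, n = 3 each), and the log2 fold change (log2FC) was -4.29 (standard error, SE, 0.198, 95% interval -4.70 to -3.87), which left 5.13% of the control level. Taken within each replicate number, the log2 ratios were -4.39, -4.42 and -4.08. SLC12A4 ranked 11 of 13356 genes by edgeR p-value, a place that is no separate result, since it was chosen on this difference. In such bulk libraries, less RNA in every cell and fewer cells that express the gene cannot be told apart.

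Of the 8 genes, SLC12A4 was the 1 past both cut-offs (a log2FC of at least 1 in size and an adjusted p under 0.05), beside 0.719% of all tested genes, a count that follows from how the genes were chosen. For 3 of the 8, every library of one group lay above every library of the other, namely SLC12A4, SLC12A7 and OXSR1, as for 15.6% of all tested genes. The other 7 genes differed by log2FC values between -0.18 and 0.10, with a median of 0.0037, beside a median of 0.0035 over all tested genes. Their 95% intervals, from the fit without pairs, together spanned -0.35 to 0.29. For none of the 7 did the interval reach a change of 2-fold, and 6 of the 7 intervals held 0.

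**Figure D1:**
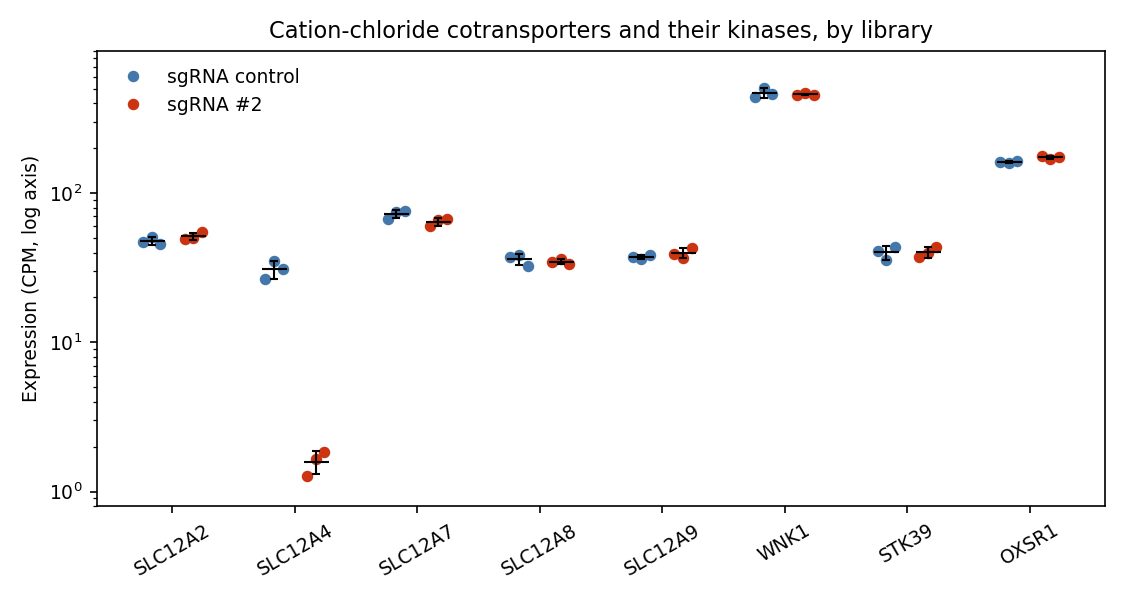
Expression in CPM on a log axis of the 8 genes in each library (points), with the mean and SD of the 3 libraries of a group (black). SLC12A4 falls from 30.9 to 1.59 CPM, while the other 7 genes differ by log2FC values of -0.18 to 0.10.

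The sequence near SLC12A4 was not used to choose the genes, and is shown because CRISPR interference acts where the sgRNA finds its target next to a PAM, the short motif (NGG) that Cas9 needs. For each tested gene, both strands within 1000 bp of every start site in GENCODE release 44 were searched for the longest unbroken run of sgRNA #2 bases, counted from the PAM side and followed by NGG. SLC12A7 had 2 sites with its longest run of 6, and the one nearer a start site is shown. The other lay at chr5:1077585-1077607 on the plus strand. The target in SFTPB and the longest runs near SLC12A4, SLC12A7 and SLC12A8 are printed 5′ to 3′. The matched run is in capitals and the PAM is the last 3 letters, all read from GRCh38.
SFTPB target, chr2:85668529-85668551, minus strand: GGGATGGGAGGGGAACACCCagg
SLC12A4, chr16:67969342-67969364, minus strand: gcttggatagaGGAACACCCagg
SLC12A7, chr5:1093875-1093897, minus strand: ctgctgagtgctggACACCCtgg
SLC12A8, chr3:125212316-125212338, minus strand: gcgggcagccggggACACCCggg

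The site near SLC12A4 matched the 9 bases next to the PAM and the same PAM letters as the target. With positions numbered from 1, starting at the sgRNA's 5′ base, it differed by 7 substitutions, G2C, G3T, A4T, T5G, G7A, G8T and G11A. Its centre lay 161 bp upstream of the nearest annotated SLC12A4 start site, at 67969192, and 716 bp upstream of the start site of the canonical transcript, at 67968637. Of the 19 annotated transcripts, 18 start downstream of the site, and in the 1 transcript with a start further out the site falls in the first intron. With its surroundings, chr16:67969278-67969428 on the minus strand reads as follows, with the site and its PAM in capitals.
SLC12A4 upstream region: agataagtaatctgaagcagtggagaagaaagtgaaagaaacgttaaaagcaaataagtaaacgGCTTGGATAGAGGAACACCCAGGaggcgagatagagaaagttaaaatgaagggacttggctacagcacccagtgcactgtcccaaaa

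A run of at least 9 bases was found near 63 of the 13082 tested genes with an annotated start site (0.482%). Near the other 7 members the longest runs were 6 bases for SLC12A7 and SLC12A8, 5 for SLC12A2, SLC12A9, WNK1 and STK39 and 4 for OXSR1. Runs of at least 6 and at least 5 bases were common, near 24.1% and 76.5% of tested genes. A gene with more start sites has more sequence to search, and SLC12A4 has 18 annotated start sites, against 19 for WNK1, 16 for SLC12A8, 15 for SLC12A9 and a median of 7 over tested genes. Of the 63 genes with a run of at least 9 bases, 13 (20.6%) were past both cut-offs, beside 0.719% of all tested genes. The median log2FC of the 63 was -0.23. The 13 include SLC12A4, chosen on this difference, and SFTPB, the target, so the share is a description and not a test. It was 23.8% of 42 genes within 500 bp and 15.2% of 92 genes within 2000 bp. With NAG as the PAM within 1000 bp, 0 of 37 genes were past both cut-offs. The length of 9 was set by the run at SLC12A4 itself. Binding of dCas9-KRAB was not measured here, and the part of the partial match in the level of SLC12A4 was not tested.

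**Figure D2:**
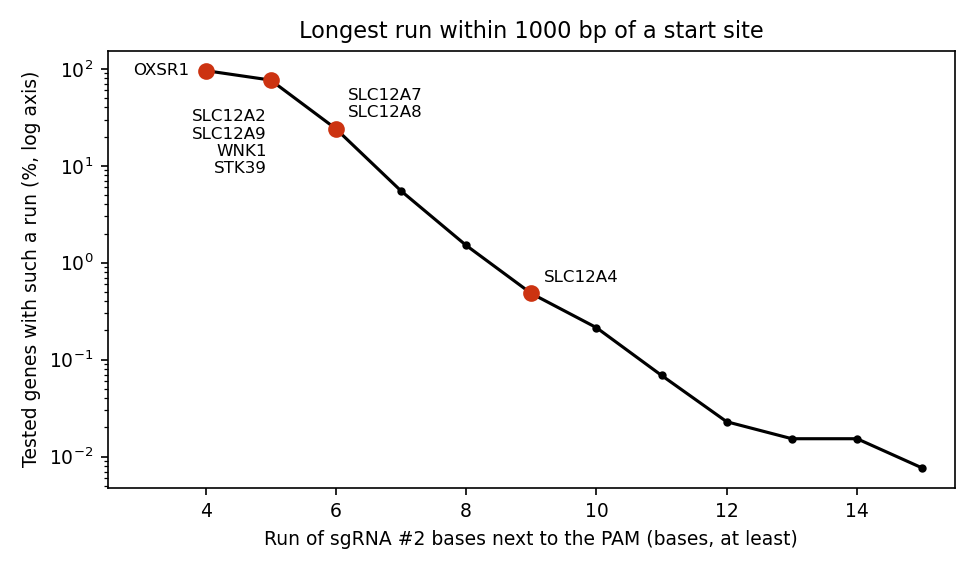
Share of tested genes (log axis) with a run of sgRNA #2 bases next to a PAM at least as long as on the horizontal axis, within 1000 bp of a start site, with the 8 genes marked at their longest run. SLC12A4 stands at 9 bases, where the share is 0.482%, and the other 7 genes at 4 to 6 bases.

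SLC12A7, the second potassium-chloride cotransporter of the group (KCC4, chr5:1050384-1112063), had 67.6, 74.5 and 76.0 CPM with the sgRNA control and 59.9, 66.4 and 66.8 CPM with sgRNA #2. The highest sgRNA #2 library lay just under the lowest control library. The log2FC was -0.18 (SE 0.0791, 95% interval -0.35 to -0.011), and the log2 ratios within the replicate numbers were -0.17, -0.17 and -0.18. This was the 1 interval among the 7 genes that did not hold 0, but SLC12A7 was past the adjusted p in none of the 13 fits.

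SLC12A2 (NKCC1, chr5:128083766-128189677), the cotransporter that loads chloride into the cell, had 47.1, 51.1 and 45.7 CPM with the sgRNA control and 49.6, 50.4 and 54.9 CPM with sgRNA #2. The groups overlapped, and the log2FC was 0.10 (SE 0.0855, 95% interval -0.076 to 0.29). SLC12A8 (chr3:125082636-125212864) and SLC12A9 (chr7:100826820-100867010) are more distant members of the family whose transported ions are less well defined. SLC12A8 lay at 37.2, 38.3 and 32.4 CPM with the sgRNA control and at 34.6, 36.1 and 33.6 CPM with sgRNA #2, a log2FC of -0.045 (95% interval -0.25 to 0.16). SLC12A9 lay at 37.4, 36.5 and 38.3 CPM and at 39.3, 36.9 and 42.7 CPM, a log2FC of 0.082 (95% interval -0.11 to 0.28). For both genes the control and sgRNA #2 ranges overlapped. SLC12A9 overlaps EPHB4 and an antisense gene on the other strand, and since the strand setting of the counting is not given, reads there could belong to either strand.

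The 3 kinases differed in abundance, with WNK1 highest in CPM. WNK1, the upstream kinase (chr12:752579-911452), had 438, 507 and 464 CPM with the sgRNA control and 458, 466 and 453 CPM with sgRNA #2, a log2FC of -0.033 (95% interval -0.17 to 0.11). STK39, which encodes SPAK (chr2:167954020-168247595), had 40.7, 35.6 and 43.8 CPM with the sgRNA control and 37.3, 39.7 and 43.7 CPM with sgRNA #2, a log2FC of 0.0037 (95% interval -0.21 to 0.22). In both genes the ranges of the groups lay over each other. WNK1 also overlaps an annotated gene on the other strand, with the same limit on its counts. OXSR1, which encodes OSR1 (chr3:38165089-38255484), had 162, 158 and 164 CPM with the sgRNA control and 176, 170 and 174 CPM with sgRNA #2. All 3 sgRNA #2 libraries lay above the control libraries, and the log2FC was 0.10 (SE 0.0615, 95% interval -0.026 to 0.23), an interval from the fit without pairs that held 0. Within the replicate numbers the log2 ratios of OXSR1 were 0.12, 0.10 and 0.084.

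**Figure D3:**
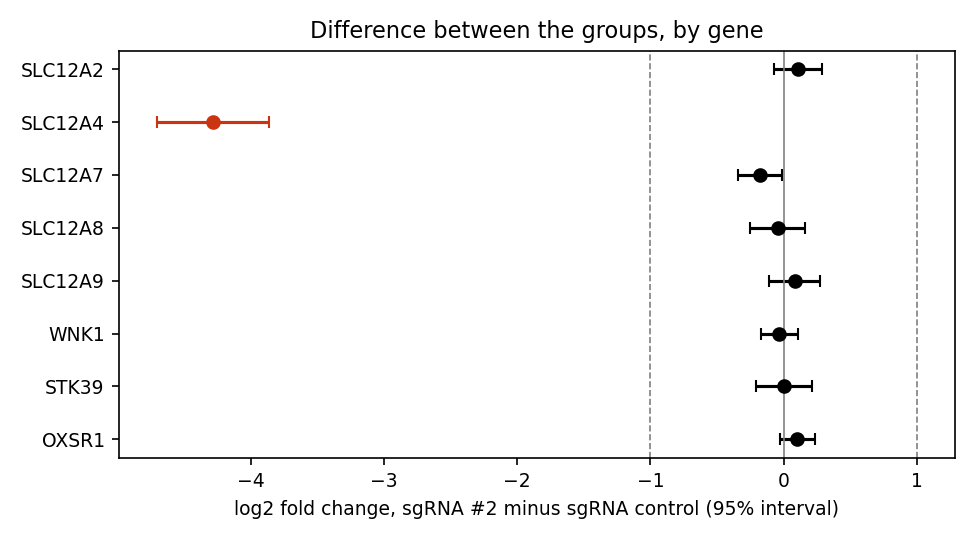
Log2 fold change of each of the 8 genes between sgRNA #2 and the sgRNA control (points) with its 95% interval (bars). The intervals are from the edgeR fit without pairs, and dashed lines mark a change of 2-fold in either direction. SLC12A4 lies at -4.29, and the other 7 genes between -0.18 and 0.10.

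Compared per length (CPM per kb of merged exons), the kinases WNK1 and OXSR1 had the highest levels with the sgRNA control, 27.2 ± 2.00 and 26.6 ± 0.460 (SD, n = 3 each), and their ranges overlapped. SLC12A7 followed at 12.1 ± 0.750 and STK39 at 10.8 ± 1.12, again with overlapping ranges. SLC12A8 stood at 6.44 ± 0.561, apart from the genes above and below it. SLC12A2 at 4.499 ± 0.262, SLC12A9 at 4.20 ± 0.103 and SLC12A4 at 3.68 ± 0.507 closed the order, each overlapping the next. With sgRNA #2, SLC12A4 dropped to 0.189 ± 0.0335 CPM per kb. The means of WNK1 and OXSR1, and of SLC12A7 and STK39, exchanged places. With sgRNA #2 the ranges of SLC12A7 and STK39 still overlapped, and those of WNK1 and OXSR1 did not. SLC12A4 was lowest of the 8 with either length, but when the longest transcript was taken as the length, SLC12A9 came before SLC12A2.

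Within each library, the division of the signal between SLC12A4 and SLC12A7 does not depend on library size. Of the summed SLC12A4 and SLC12A7 counts per exon length, SLC12A4 made up 22.04, 25.25 and 22.49% with the sgRNA control and 1.502, 1.744 and 1.919% with sgRNA #2, or 23.3 ± 1.74% and 1.72 ± 0.209% (SD, n = 3 each). Since SLC12A4 is a part of these sums, the shares restate its fall and are no separate result.

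**Figure D4:**
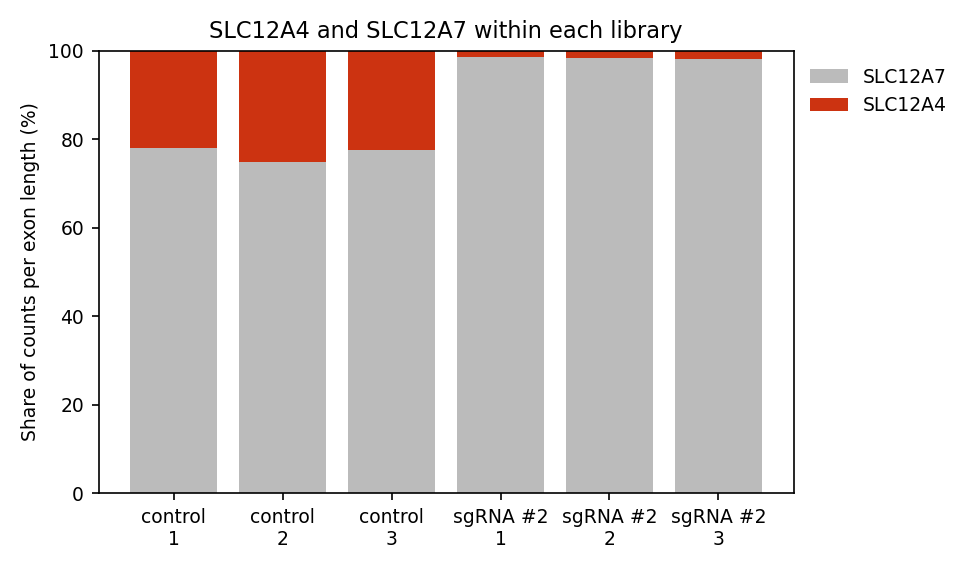
Share (%) of SLC12A7 and SLC12A4 in their summed counts per exon length, in each of the 6 libraries. SLC12A4 takes 22.04 to 25.25% in the 3 sgRNA control libraries and 1.502 to 1.919% in the 3 sgRNA #2 libraries.

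The genes around SLC12A4 on chromosome 16 were compared because their position was not used to choose the group. Of the 13 tested genes with a start site within 250 kb of the canonical SLC12A4 start site, LCAT alone passed the adjusted p in edgeR, and it was lower, beside 2.22% of all tested genes that were lower and 0.464% that were higher at that threshold. LCAT, the plasma enzyme that esterifies cholesterol on lipoproteins, lies directly downstream on the same strand, from 67939750 to 67944131. It had 21, 30 and 34 counts with the sgRNA control and 0, 1 and 4 with sgRNA #2, where 2 of the 3 libraries were under the floor of 3 counts set for detection. Its log2FC was -3.90 (SE 0.511, edgeR adjusted p = 1.21e-04), and moved between -5.48 and -3.29 over the alternatives that tested it. LCAT passed the filter on low counts only through its control libraries, the group where it was high. The spans of SLC12A4 and LCAT overlap by 658 bp, and an exon of one shares up to 184 bp with an exon of the other. Reads on a shared stretch were left out as ambiguous if the annotation used for counting held the overlap. That annotation is not given, and otherwise such reads could have been counted for either gene. The canonical start sites are 24517 bp apart, and the longest run of sgRNA #2 bases near an LCAT start site was 6. How far LCAT counts came from SLC12A4 transcripts was not tested.

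The nearest other tested genes did not pass. Downstream, PSMB10, a proteasome subunit, had a log2FC of -0.13 (adjusted p = 0.808) and CTRL, a chymotrypsin-like protease, one of -0.062 (adjusted p = 0.973, both from edgeR). Upstream, DDX28, a mitochondrial RNA helicase, had -0.030 (adjusted p = 0.943), DUS2, a tRNA-modifying enzyme, 0.043 (adjusted p = 0.946) and NFATC3, a transcription factor, 0.041 (adjusted p = 0.896, all from edgeR). The median over the 13 genes was -0.062.

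**Figure D5:**
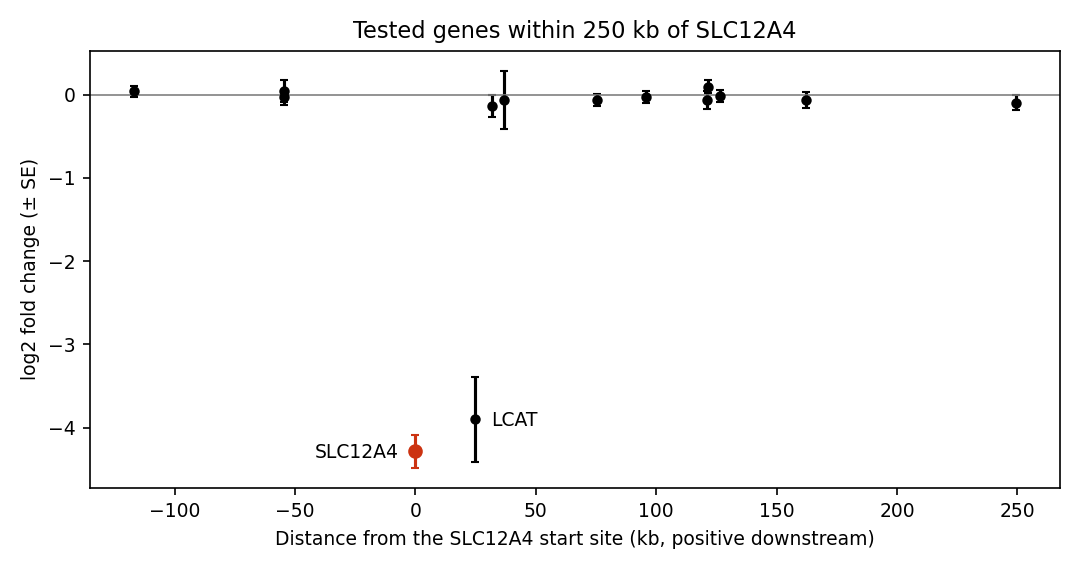
Log2 fold change with its SE of the tested genes within 250 kb of SLC12A4, against the distance of their start sites from that of SLC12A4 in kb, positive downstream. SLC12A4 (-4.29) and LCAT (-3.90) lie apart from the other 12 genes, which lie between -0.13 and 0.098.

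The wider machinery of chloride transport and cell volume was read in 5 lists of 110 genes, of which 84 were tested. With edgeR's p-values adjusted over all tested genes, 3 of the 84 were lower and 1 higher, or 4.76%, beside 2.69% of all tested genes. The median log2FC of the 84 was -0.032. With the replicate number as a block, 15 of the 84 (17.9%) passed, 8 lower and 7 higher, beside 10.0% of all tested genes. Over all tested genes, 11.1% had an unadjusted p under 0.05 and 2.26% passed in DESeq2, against 13 and 3 of the 84. The 4 genes that passed without the block were SLC9A2, KCNN4, KCNK5 and AQP3.

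The list of the cotransporter family and its kinase pathway held further SLC12 genes, the other WNK kinases and the scaffold of SPAK and OSR1. It also held parts of the ligase that degrades WNK kinases, and phosphatases. Of its 16 tested genes, 0 passed in edgeR, 0 had an unadjusted p under 0.05 and 0 passed in DESeq2. The shares of all tested genes were 2.69%, 11.1% and 2.26%. The smallest adjusted p-values belonged to CAB39L, PPP1CB, NEDD4L and CAB39. CAB39L, a scaffold of the 2 kinases, had a log2FC of 0.50 (SE 0.255, edgeR adjusted p = 0.502) on 20 to 44 counts, and CAB39, its more abundant relative, 0.065 (edgeR adjusted p = 0.831). PPP1CB, a catalytic subunit of protein phosphatase 1, had 0.13 (edgeR adjusted p = 0.548), and passed with the replicate block (adjusted p = 0.0243). It was the 1 of the 16 (6.25%) that passed with the block, beside 10.0% of all tested genes. NEDD4L, a ubiquitin ligase, had -0.079 (edgeR adjusted p = 0.798).

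The list of anion channels and volume regulation held the LRRC8 subunits of the volume-regulated anion channel, the ClC family and CFTR. Of its 19 tested genes, 0 passed in edgeR, 1 had an unadjusted p under 0.05 and 0 passed in DESeq2. The shares of all tested genes were 2.69%, 11.1% and 2.26%. The 1 gene was TTYH3, with a log2FC of -0.21 (edgeR adjusted p = 0.141, and 7.50e-05 with the replicate block). With the block 1 of the 19 (5.26%) passed, beside 10.0% of all tested genes. CLCN6, CLCN5 and TMEM206, the acid-activated chloride channel, followed with 0.17, -0.19 and 0.16 (adjusted p = 0.684, 0.711 and 0.714 from edgeR).

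In the list of the sodium and potassium gradient, 3 of 20 tested genes were lower and 0 higher in edgeR, beside 2.22% and 0.464% of all tested genes. DESeq2 called 3 of the 20, beside 2.26% of all tested genes. KCNN4, the calcium-activated potassium channel KCa3.1, had 28.5, 28.1 and 28.5 CPM with the sgRNA control and 19.6, 13.3 and 14.5 CPM with sgRNA #2, a log2FC of -0.84 (SE 0.133, edgeR adjusted p = 9.87e-04). SLC9A2, the sodium-proton exchanger NHE2, had 15.3, 13.7 and 9.97 CPM with the sgRNA control and 6.248, 5.996 and 4.490 CPM with sgRNA #2, a log2FC of -1.20 (SE 0.199, edgeR adjusted p = 0.00160). KCNK5, a two-pore potassium channel, had 39.9, 40.4 and 33.5 CPM and then 26.7, 24.3 and 28.3 CPM, a log2FC of -0.52 (SE 0.107, edgeR adjusted p = 0.0100). For each of the 3, every control library was above every sgRNA #2 library. The groups did not overlap, in either direction, for 15.6% of all tested genes. KCNK5 passed in 10 of 12 alternatives, and was lost when replicate 2 of either group was left out (highest adjusted p = 0.0631 from edgeR). KCNJ15, a potassium channel with 2 to 15 counts, had a log2FC of 1.15 (edgeR adjusted p = 0.295, and 0.0293 with the block). With the block, 6 of the 20 passed, 5 lower and 1 higher, beside 10.0% of all tested genes.

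In the list of chloride and bicarbonate transport, 0 of 16 tested genes passed in edgeR, 3 had an unadjusted p under 0.05 and 0 passed in DESeq2. The shares of all tested genes were 2.69%, 11.1% and 2.26%. With the block 3 of the 16 (18.8%) passed, beside 10.0% of all tested genes. SLC4A5 and SLC4A7, both sodium-bicarbonate cotransporters, had log2FC values of 0.43 (adjusted p = 0.111, and 0.00385 with the block) and 0.18 (adjusted p = 0.238, and 0.0119 with the block). CA9, a carbonic anhydrase, had -0.39 (adjusted p = 0.305, and 4.12e-05 with the block), and SLC4A11 had -0.53 on 17 to 35 counts (adjusted p = 0.451, all from edgeR).

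In the list of osmolyte uptake and water, 1 of 13 tested genes (7.69%) passed in edgeR, beside 2.69% of all tested genes, and 0 in DESeq2, beside 2.26%. AQP3, a channel for water and glycerol, was higher, with 61.8, 73.4 and 102 CPM with the sgRNA control and 105, 110 and 168 CPM with sgRNA #2, a log2FC of 0.68 (SE 0.162, edgeR adjusted p = 0.0290). The lowest sgRNA #2 library lay just above the highest control library. AQP3 was lost in DESeq2 (adjusted p = 0.497) and without control replicate 1, control replicate 2 or sgRNA #2 replicate 3 (highest adjusted p = 0.122). It passed in 8 of 12 alternatives, among them edgeR with the replicate block (adjusted p = 4.16e-32, which rests on the dispersion trend). AQP11 had a log2FC of -0.56 (adjusted p = 0.0640, and 0.00267 with the block), and the amino acid transporters SLC38A1 and SLC38A2 had 0.21 and 0.28 (adjusted p = 0.190 and 0.245, and 2.07e-05 and 4.64e-09 with the block, all from edgeR). With the block 4 of the 13 (30.8%) passed, 1 lower and 3 higher, beside 10.0% of all tested genes.

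The tested genes whose levels most resembled SLC12A4 over the 6 libraries, by Pearson's r of log2 CPM, were BSG (r = 0.9996), GDF5 (0.9985), ERBB2 (0.9985), SEL1L3 (0.998) and RUSC1 (0.998). The libraries fall into 2 groups for SLC12A4, so r mostly carries the difference between the groups and is given with no p. The log2FC values were -1.01 for BSG, -0.70 for ERBB2, -0.68 for SEL1L3 and -2.86 for RUSC1. GDF5 had 11, 15 and 16 counts with the sgRNA control and 1 count in each sgRNA #2 library.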

How the data were processed

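RNA-seq libraries from 6 A549 samples were used, in the groups and replicate numbers of the sample labels. The deposited tables hold the authors' raw read counts, 1 per symbol, from htseq-count on hg38 (GRCh38). The submitters' processing notes also name Trim Galore, FastQC, Bowtie2 2.3.3.1, SAMtools and Picard. The annotation and strand setting are not given in the sources used here. Among the genes named from the lists, SLC4A5, SLC4A7, CA9, AQP11, SLC38A2, KCNJ15, PPP1CB, NEDD4L, CAB39, CLCN5 and CLCN6 overlap annotated genes on the other strand. The limit given for SLC12A9 holds for their counts too. Reads outside genes (19.7 to 21.1%) and ambiguous reads (2.61 to 2.75%) were left out. Of the symbols, 24531 were matched to GENCODE release 44, 1370 of them through an older symbol.

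A gene was tested when 3 or more libraries had 10 or more counts, in R 4.3.3 with edgeR 4.0.16 (TMM, quasi-likelihood test, Benjamini-Hochberg adjustment over 13356 genes). Standard errors were taken as the size of the log2FC over the square root of F. Alternatives were DESeq2 1.42.0, RLE size factors, library totals, 2 other count filters, the replicate block, each library left out, other windows, length and PAM. Same-numbered libraries deviated together from their group means across genes (r = 0.269, 0.287 and 0.291), so the labels' numbers were taken to pair them. The main fit had no block, so its SEs, intervals and adjusted p-values leave this pairing out. Blocked values are given where they change a call, and no interval with the block is given. The block left an infinite prior degrees of freedom, against 13.0 without it, so its p-values rest on the dispersion trend. Libraries of 1 group differed by more than sampling noise (chi-square per degree of freedom 2.61 to 3.43). The floor of 3 counts covers counting error only.

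The genes named are the 8 members, the 4 with the smallest adjusted p in each list, the neighbours that passed and the nearest 3 on each side, SFTPB, and the 5 most like SLC12A4. Some genes of the lists are not reported singly here. The members and lists were chosen with earlier results of these data known. Sequences were read in Python 3.11.15 from GRCh38, and the sgRNA from the study's supplementary table.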

Additional observations from a re-analysis of the deposited data

How the results depend on the processing

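SLC12A4 was lower with sgRNA #2 under each of the 11 alternatives that tested it, at -4.39 to -4.14 on the log2 scale. It was past both cut-offs in each, which follows from its choice on this difference in the same libraries. SLC12A4 was not tested when 10 counts were required in every library, since 1 sgRNA #2 library had 9. Of 84 values of the other 7 members under alternatives, 0 moved by more than the spread (SD) between replicates. The values with 1 library left out could not do so, since dropping 1 of 3 libraries shifts a group mean by less than that SD. The sign of the small differences of SLC12A8 (0.0054) and WNK1 (0.026) turned without sgRNA control replicate 2, and that of STK39 without it (-0.074) or without sgRNA #2 replicate 3 (-0.057). Against 96 genes past both cut-offs and 359 past the adjusted p alone, requiring 10 counts in every library left 63 past both, the unfiltered fit gave 583 past the adjusted p and the replicate block 1339. Leaving out 1 library gave 65 to 94 and 224 to 327, with 233 without sgRNA control replicate 2 and 224 without sgRNA #2 replicate 1. Against 4 genes of the 5 lists, the unfiltered fit gave 8, the block 15 and leaving out 1 library 2 to 6, with 2 without sgRNA control replicate 2. Against 1 gene near SLC12A4, a window of 1 Mb gave 2 of 47 tested genes (4.26%), beside 2.69% of all tested genes. The second was CDH1 (log2 fold change -0.34, adjusted p = 0.00728 from edgeR). Requiring 10 counts in every library gave 0, and leaving out 1 library 0 to 1, as LCAT was then not tested without any 1 control library. LCAT passed in all 8 alternatives that tested it, at -5.48 to -3.29. The share of SLC12A4 beside SLC12A7 was 32.3% with the sgRNA control and 2.68% with sgRNA #2 when the longest transcript was taken as the length. The longest run near SLC12A4 was 9 with windows of 500 and 2000 bp and 5 with NAG as the PAM. The block changed no call of the 8 members or of genes within 250 kb of SLC12A4, and no listed call beyond those counted in the report. Within 1 Mb, 3 of 47 tested genes (6.38%) passed with the block, beside 10.0% of all tested genes. Low counts limit the precision of LCAT and SLC12A4, with 0 to 4 and 9 to 11 counts in the sgRNA #2 libraries, of GDF5, with 1 in each, and of KCNJ15, with 2 to 15 over all libraries.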
